A study of Mus musculus with 52 samples.

Results

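The AP-1 genes described here are the 7 Fos and Jun subunit genes Fos, Fosb, Fosl1, Fosl2, Jun, Junb and Jund, taken by name from count tables that each list 21999 genes. AP-1 is a dimeric transcription factor of the basic leucine zipper (bZIP) class. Fos proteins bind DNA when paired with another bZIP protein, mainly a Jun protein, whereas Jun proteins can also pair with each other. Several of these genes are immediate-early genes, transcribed within minutes of a stimulus without new protein synthesis, and Fos has long been used to mark cells of the suprachiasmatic nucleus (SCN) that respond to light at night. The SCN is the paired hypothalamic nucleus that holds the circadian pacemaker.

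RNA was measured by bulk RNA-seq in SCN tissue of male mice aged 11 to 12 weeks, and each library pooled 6 pairs of SCN. In the first experiment wild-type (WT) mice were kept in the dark and sampled at circadian time (CT) 17, with 4 libraries, or CT 23, with 2, or were given light starting at CT 17. Light lasted 0.5 h in 4 libraries and 1 h, 3 h or 6 h in a pair of libraries each. Dark libraries were taken at no time between CT 17 and CT 23. Light and circadian time therefore cannot be told apart at 3 h or in the steps between light durations. In the second, Npas4 null mice after 1 h of light at CT 17, their wild-type littermates after the same light, null mice in the dark and wild-type littermates in the dark gave 3 libraries each. NPAS4 is an activity-induced transcription factor of neurons; the labels say neither which part of its gene is deleted nor in which cells, and name no promoter or Cre. The histone marks H3K27ac of active promoters and enhancers and H3K4me3 of active promoters were each given as 1 peak list after 1 h of light and 1 in the dark, from samples of 2 pairs of SCN.

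Sequence upstream of 4 of the light-responsive genes is shown because 6 of the 7 genes, all but Jund, were called higher together after 1 h of light. The 150 bases before the annotated start are from RefSeq on GRCm38.p6, for Fos at chr12:85473740-85473889 (plus strand), Fosb at chr7:19310046-19310195 (minus), Junb at chr8:84978749-84978898 (minus) and Jun at chr4:95052223-95052372 (minus). Capitals mark TGACG (a cAMP-response half-site), TGACATCA (a variant AP-1 or ATF site), GCGNGGGCG (the EGR site), TATAAA and CCAAT.
Fos: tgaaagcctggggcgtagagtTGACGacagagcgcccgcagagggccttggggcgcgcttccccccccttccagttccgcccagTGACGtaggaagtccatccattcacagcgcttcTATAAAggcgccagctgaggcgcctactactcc
Fosb: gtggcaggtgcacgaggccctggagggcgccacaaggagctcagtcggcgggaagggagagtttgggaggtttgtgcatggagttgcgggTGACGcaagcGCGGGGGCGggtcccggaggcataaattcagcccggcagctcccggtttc
Junb: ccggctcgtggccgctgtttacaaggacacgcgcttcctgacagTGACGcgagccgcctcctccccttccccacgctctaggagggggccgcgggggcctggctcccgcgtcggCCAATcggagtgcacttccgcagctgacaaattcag
Jun: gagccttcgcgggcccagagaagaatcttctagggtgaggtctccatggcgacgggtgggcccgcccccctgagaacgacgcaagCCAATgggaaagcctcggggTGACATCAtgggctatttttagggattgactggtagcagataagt

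Motifs were searched on both strands in the windows from 250 bases before to 50 after the start, which were at hand for 6 of the 7 genes (all but Fosl1) and for 32851 windows in all. TGACG occurred in 3 of the 6 windows (Fos, Fosb and Junb), against 20.8% of all windows, and in Fos it began at positions -129 and -66, counted from the start. TGACATCA occurred in Jun alone, at position -45, and in 3.62% of all windows. GCGNGGGCG occurred in Fosb and Fosl2, against 5.55% of all windows. TATAAA occurred in Fos at -33 and in Junb at 1 (13.6% of all windows) and CCAAT in Jun and Junb (37.4%). The full cAMP-response element TGACGTCA, the AP-1 site TGACTCA, the E-box CACGTG and the CArG box bound by SRF were in none of the 6 windows, and in 1.79%, 5.2%, 7.15% and 1.63% of all windows. The site TGACG is part of TGACGTCA, so those 2 searches overlap. A match is a description of these letters only, and the absence of one says nothing about a factor.

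On GRCm38 the genes span 85473890 to 85477274 of chromosome 12 (Fos, plus strand), 19302696 to 19310118 of chromosome 7 (Fosb, minus), 5447698 to 5455938 of chromosome 19 (Fosl1), 32136472 to 32157840 of chromosome 5 (Fosl2, plus), 95049036 to 95052222 of chromosome 4 (Jun, minus), and, on chromosome 8, 84976909 to 84978748 (Junb, minus) and 70697739 to 70700616 (Jund, plus). The genes are thus on 6 chromosomes, and Junb and Jund share one.

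The 12 light-pulse libraries without the title suffix s held 12477382 to 15369985 counted reads, the 4 with it 27413860 to 30149286, and the 12 libraries of the Npas4 experiment 26638939 to 32097975. All 7 genes passed the filter on low counts in both experiments, with 14524 and 15001 genes tested. The SCN markers Vip (114 to 273 RPKM in the light-pulse and 288 to 716 RPKM in the Npas4 libraries), Avp and Six6 were present in every library. Libraries 1 and 1s, or 2 and 2s, may come from the same pool, so p-values measure a spread between libraries that may in part be technical. One 0.5 h library (replicate 2) stood apart, with 2430 RPKM summed over 8 meningeal fibroblast markers, and null light replicate 1 was the lowest of its group for each of the 7 genes. In bulk tissue, fewer cells of a type and less RNA per cell cannot be told apart.

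Light given in the subjective night raised Fos, Fosb, Fosl2, Jun and Junb within 0.5 h and Fosl1 within 1 h, whereas Jund differed from dark by 0.22 to 0.33 log2 units at 0.5 to 3 h and was not called. At 0.5 h 5 of the 7 genes were called higher than at CT 17 in the dark (edgeR, adjusted p under 0.05), against 0.427% of all genes tested. At 1 h 6 of 7 were called higher, against 4.39%, and at 3 h the same number against 6.4%. The median log2 fold change of the 7 genes was 2.53 at 0.5 h, 4.18 at 1 h and 2.18 at 3 h, beside a median of -0.01 over all genes at each time.

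**Figure D1:**
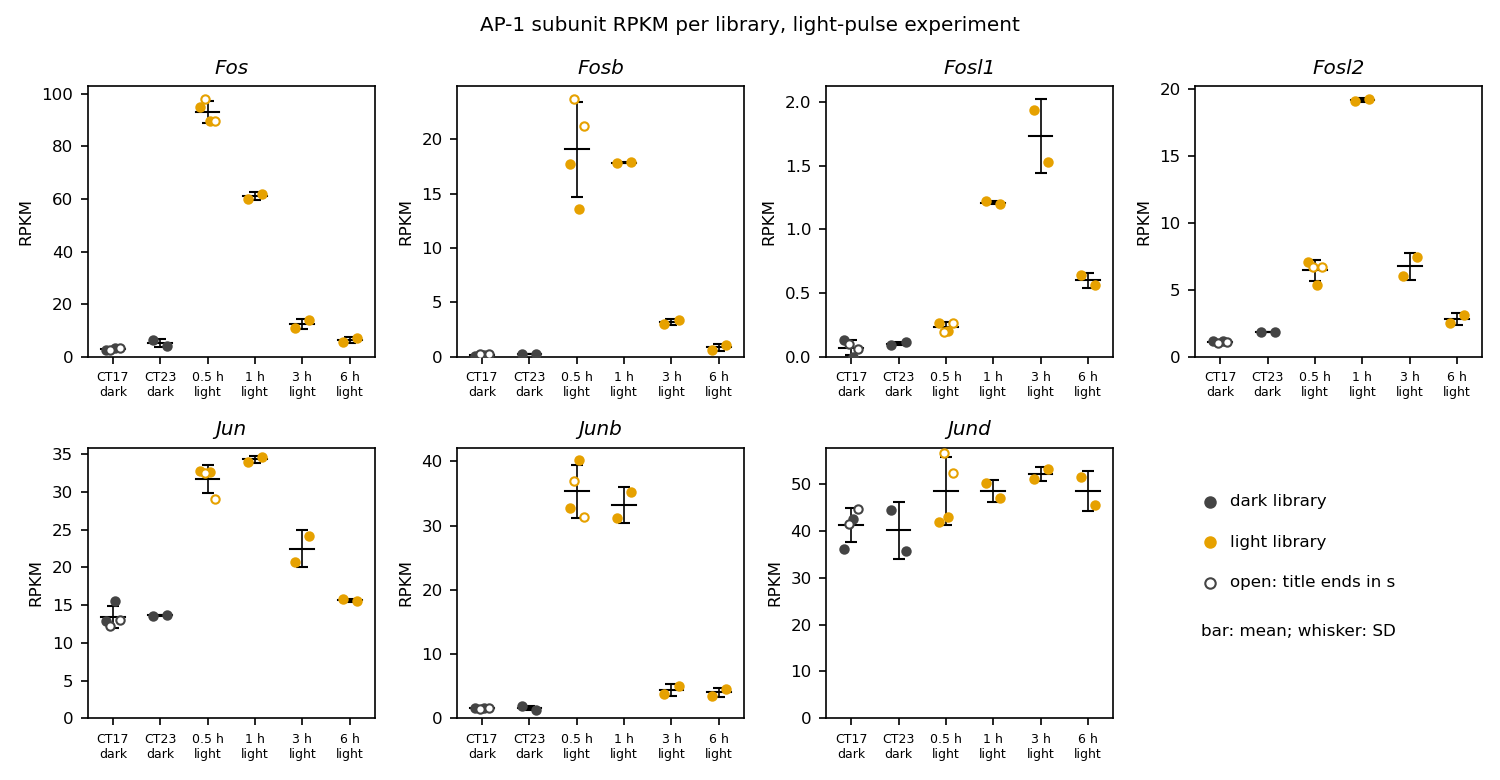
RPKM of each AP-1 subunit gene in every light-pulse library, with dark libraries at CT 17 and CT 23 at the left and light of 0.5, 1, 3 and 6 h to the right; open points are libraries whose title ends in s. Fos stood at 89.5 to 98.2 RPKM at 0.5 h and at 2.56 to 3.27 RPKM at CT 17, whereas Jund stood between 35.7 and 56.6 RPKM in all 16 libraries.

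Fos, the founding member of the family and a partner of all Jun proteins, stood at 2.56, 2.74, 3.27 and 3.18 RPKM at CT 17, at 94.9, 98.2, 89.8 and 89.5 RPKM after 0.5 h, at 60.1 and 62.1 RPKM after 1 h, at 11.0 and 13.9 RPKM after 3 h and at 5.65 and 7.11 RPKM after 6 h. No library of one light duration overlapped with the next. The 0.5 h libraries differed from CT 17 by 4.96 ± 0.12 log2 units (SE, n = 4 each; edgeR adjusted p 2.1e-12), the 1 h libraries by 4.47 ± 0.14 (adjusted p 3.28e-11) and the 3 h libraries by 2.18 ± 0.15 (adjusted p 5.89e-07). The highest level was thus at 0.5 h, and Fos was lower at 1 h than at 0.5 h by a log2 change of -0.50 ± 0.12 (edgeR adjusted p 0.0314). That step lost its call without 4 of its 6 libraries (0.5 h replicates 1s and 2s, 1 h replicates 1 and 2) and when the fit held a term for the title suffix instead of the label batch (adjusted p 0.0685).

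Fosb, whose gene also yields the truncated form ΔFosB that accumulates in neurons under repeated stimulation, was at 0.109, 0.282, 0.152 and 0.298 RPKM at CT 17. After 0.5 h it was at 17.7, 23.7, 13.6 and 21.2 RPKM, after 1 h at 17.8 and 17.9 RPKM, after 3 h at 3.0 and 3.37 RPKM and after 6 h at 0.667 and 1.1 RPKM. The 0.5 h and 1 h libraries overlapped with each other and lay far above all the rest. Its rise of 6.40 ± 0.20 log2 units at 0.5 h (edgeR adjusted p 2.1e-12) ranked 2nd by log2 fold change among the 14524 genes tested. At 1 h the rise was 6.14 ± 0.21 (edgeR adjusted p 3.28e-11) and ranked 1st. The step between these durations was -0.26 and was not called. Libraries with the suffix s read higher for Fosb, at 0.282 and 0.298 RPKM against 0.109 and 0.152 RPKM without it at CT 17. Among libraries without it, Fosb was at 17.7 and 13.6 RPKM after 0.5 h and at 17.8 and 17.9 RPKM after 1 h. Fosb and its spliced forms are counted here as 1 gene.

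Fosl2 encodes Fra-2, a Fos-related protein without the strong activation domain of Fos, and peaked later. It was at 1.22, 1.01, 1.17 and 1.08 RPKM at CT 17, at 7.11, 6.69, 5.36 and 6.69 RPKM after 0.5 h, at 19.1 and 19.3 RPKM after 1 h, at 6.03 and 7.49 RPKM after 3 h and at 2.51 and 3.13 RPKM after 6 h. The 1 h libraries stood alone at the top, and those of 0.5 h and 3 h overlapped below them. The log2 change from CT 17 was 2.53 ± 0.11 at 0.5 h (edgeR adjusted p 1.21e-09), 4.18 ± 0.13 at 1 h (adjusted p 3.28e-11) and 2.68 ± 0.14 at 3 h (adjusted p 3.18e-08).

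Fosl1 encodes Fra-1, the other short Fos-related protein, and was the scarcest of the 7. It had 3, 5, 0 and 3 counts at CT 17, 6, 9, 5 and 13 counts after 0.5 h, 28 and 28 after 1 h, 42 and 37 after 3 h, and 15 and 14 after 6 h, in libraries of unlike depth. In RPKM these were 0.132, 0.0972, 0 and 0.0584 at CT 17, 0.266, 0.192, 0.206 and 0.263 after 0.5 h, 1.22 and 1.2 after 1 h, 1.94 and 1.53 after 3 h, and 0.642 and 0.56 after 6 h. The 3 h libraries were the highest, and the RPKM of no light duration overlapped with CT 17. The change at 0.5 h, 1.58 ± 0.46 log2 units, was not called (edgeR adjusted p 0.311), and that at 1 h was 4.01 ± 0.47 (adjusted p 3.29e-05). At 3 h it was 4.52 ± 0.47 (edgeR adjusted p 7.16e-06); the step between 1 h and 3 h, 0.51, was not called, so which of these is the peak is not resolved. DESeq2, run as an alternative test, gave no adjusted p for Fosl1 at 1 h or 3 h against CT 17. The Fosl1 calls at these times therefore have no check by that test. It also gave none for 3 h against 1 h or for CT 23 against CT 17. Fosl1 shares part of its span with Ccdc85b, and its counts are uncertain where reads fell in that overlap.

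Jun, the main partner of Fos and able to form its own dimers, started from a higher level. It was at 12.9, 12.2, 15.6 and 13.0 RPKM at CT 17, at 32.7, 32.5, 32.6 and 29.0 RPKM after 0.5 h, at 34.0 and 34.6 RPKM after 1 h, at 20.7 and 24.2 RPKM after 3 h and at 15.8 and 15.5 RPKM after 6 h. Both 1 h libraries lay above all those of 0.5 h, but the step of 0.24 log2 units was not called. Jun rose by 1.23 ± 0.08 log2 units at 0.5 h (edgeR adjusted p 9.43e-08), by 1.47 ± 0.10 at 1 h (adjusted p 1.39e-07) and by 0.86 ± 0.10 at 3 h (adjusted p 9.04e-05).

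Junb encodes a Jun protein that activates less strongly than Jun at single AP-1 sites. Its RPKM was 1.6, 1.47, 1.65 and 1.59 at CT 17, 32.7, 37.0, 40.2 and 31.3 after 0.5 h, 31.2 and 35.2 after 1 h, 3.71 and 5.02 after 3 h, and 3.52 and 4.54 after 6 h. The first pair of light durations overlapped with each other, as did the second pair. The log2 change from CT 17 was 4.46 ± 0.13 at 0.5 h (edgeR adjusted p 2.77e-12), 4.52 ± 0.15 at 1 h (adjusted p 3.28e-11) and 1.6 ± 0.17 at 3 h (adjusted p 5.68e-05).

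Jund encodes the Jun protein that most resting cells hold. It stood at 36.2, 41.5, 42.5 and 44.6 RPKM at CT 17, at 41.8, 56.6, 42.9 and 52.3 RPKM after 0.5 h, at 50.2 and 46.9 RPKM after 1 h, at 51.0 and 53.2 RPKM after 3 h and at 51.5 and 45.4 RPKM after 6 h. At 0.5 h 2 of the 4 values lay within the range of CT 17 and 2 above it, and the 1 h, 3 h and 6 h values lay above all 4 libraries of CT 17. The log2 change was 0.22 ± 0.09 at 0.5 h (edgeR adjusted p 1), 0.23 ± 0.11 at 1 h (adjusted p 0.214) and 0.33 ± 0.11 at 3 h (adjusted p 0.0692). The 3 h change passed with the suffix term (0.48, adjusted p 0.0123), with DESeq2 (adjusted p 0.0328) and within label batch 2 alone (0.34, adjusted p 0.0124).

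Within label batch 1 the 0.5 h change was 4.98 for Fos, 6.88 for Fosb, 2.38 for Fosl2, 1.19 for Jun and 4.48 for Junb on the log2 scale, and within label batch 2 it was 4.96 for Fos, 6.25 for Fosb, 2.65 for Fosl2, 1.26 for Jun and 4.45 for Junb, all called by edgeR in both. The longer light durations are in label batch 2 only, and none of their libraries has the suffix s. At CT 17 and 0.5 h, all label batch 2 libraries have the suffix and all of label batch 1 lack it. Batch and suffix therefore cannot be told apart there, and the batch term carries both into comparisons with the longer durations. With the suffix term 6 of the 7 genes were called at 1 h and 7 of 7 at 3 h, against 1.27% and 3.24% of all genes in either direction. Of 10 oligodendrocyte markers 10 were called lower at 1 h, against 3.99% of all genes, with 745 to 1090 RPKM summed at 1 h against 1390 to 1700 RPKM at CT 17, and 6 at 3 h (1060 to 1190 RPKM), against 5.06% of all genes, with none of them at 0. At 6 h against CT 23 edgeR called 0, 5 had an unadjusted p under 0.05 and DESeq2 called 1, and the sums were 906 to 1220 RPKM after light and 1130 to 1280 RPKM in the dark. Of 6 markers of the neighbouring hypothalamus, 2 were called lower and 1 higher at 1 h (374 to 378 RPKM summed, against 212 to 378 RPKM at CT 17). Their part in the AP-1 values at 1 h and later was not tested. At 0.5 h, where 5 AP-1 genes were called, 0 of 10 oligodendrocyte markers were called by edgeR or by DESeq2 and 2 had an unadjusted p under 0.05. Of 8 meningeal fibroblast markers 0 were called at 0.5 h by edgeR or by DESeq2 and 5 had an unadjusted p under 0.05, with a median log2 change of 1.54 and sums of 148 to 2430 RPKM at 0.5 h and 145 to 758 RPKM at CT 17. Their part in the 0.5 h values was not tested.

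Most subunits were lower after 3 h of light than after 1 h. At 3 h against 1 h 5 of 7 genes were called lower, against 0.578% of all genes. Junb fell by 2.92 log2 units (± 0.16, edgeR adjusted p 1.12e-07), Fosb by 2.48 (± 0.16, adjusted p 5.3e-07), Fos by 2.29 (± 0.14, adjusted p 3.87e-07), Fosl2 by 1.5 (± 0.14, adjusted p 1.47e-05) and Jun by 0.61 (± 0.11, adjusted p 0.00931). The Jun call was lost without 1 h replicate 1 or 2 or 3 h replicate 1. Between 0.5 h and 1 h 2 genes were called higher, against 4.05% of all genes: Fosl1 by 2.43 ± 0.38 log2 units (edgeR adjusted p 0.00309) and Fosl2 by 1.65 ± 0.12 (adjusted p 5.16e-06). The Fosl1 step was not called without 1 h replicate 1 (adjusted p 0.0643), and Fos was the single gene of the 7 called lower, against 3.22% of all genes.

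At 6 h against 3 h 4 of 7 were called lower, against 0.324% of all genes. Fosb fell by 1.85 log2 units (± 0.22, edgeR adjusted p 0.000588), Fosl2 by 1.27 (± 0.15, adjusted p 0.000588), Fos by 0.98 (± 0.16, adjusted p 0.0125) and Jun by 0.53 (± 0.11, adjusted p 0.0457). Junb, at -0.13, was not called. The Fos call was lost without 3 h replicate 2 or 6 h replicate 1, and the Jun call also without 6 h replicate 2, with RLE scaling (adjusted p 0.0538) and with no batch term (adjusted p 0.114).

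After 6 h of light, at CT 23, Junb was the single subunit called above the dark libraries of the same circadian time, against 0.723% of all genes called higher. Junb stood at 3.52 and 4.54 RPKM after 6 h of light and at 1.85 and 1.36 RPKM in the dark at CT 23, without overlap, a log2 change of 1.43 ± 0.23 (edgeR adjusted p 0.0043). Fosb (0.667 and 1.1 RPKM, against 0.295 and 0.302 RPKM in the dark) differed by 1.35 ± 0.34 log2 units and Fosl1 by 2.45 ± 0.66, both with an edgeR adjusted p of 0.0656. The Fosl2 difference was 0.61 ± 0.17 (edgeR adjusted p 0.135). DESeq2 called Fosb (adjusted p 0.00105) and Fosl2 (adjusted p 0.0327) beside Junb and gave no adjusted p for Fosl1. Fos stood at 5.65 and 7.11 RPKM after 6 h of light and at 6.47 and 4.26 RPKM in the dark at CT 23, so its groups overlapped (log2 change 0.32, adjusted p 0.599). With the suffix term Fosb (adjusted p 0.0187) and Fosl1 (adjusted p 0.0392) were called as well, against 1.41% of all genes in either direction. Without 6 h replicate 2 the Junb change was 1.21 (adjusted p 0.0554), and without 6 h replicate 1 Fosb was called as well (adjusted p 0.0347).

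In the dark alone, Fos and Fosl2 were called higher at CT 23 than at CT 17, 2 of 7 genes against 0.207% of all genes called higher. Fos, at 6.47 and 4.26 RPKM at CT 23 and 2.56 to 3.27 RPKM at CT 17, differed by 0.88 ± 0.16 log2 units (edgeR adjusted p 0.0279). Fosl2 was at 1.88 RPKM in both CT 23 libraries and at 1.01 to 1.22 RPKM at CT 17, a difference of 0.80 ± 0.15 (edgeR adjusted p 0.0269). The other genes were not called; at CT 23 Jun was at 13.6 and 13.7 RPKM, Jund at 44.4 and 35.7 RPKM and Fosl1 at 0.0939 and 0.114 RPKM. Neither Fos nor Fosl2 overlapped between the times, but both calls were lost with the suffix term (adjusted p 0.0668 and 0.0662), where 0.269% of all genes were called. Fos was also not called within either label batch (1.14 and 0.61), and without single libraries the Fos adjusted p ran between 0.0458 and 0.092 and that of Fosl2 between 0.015 and 0.443.

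RPKM is scaled by gene length, so shares of the 7 genes within a library are given here as a description, without a test. At CT 17 their RPKM summed to 60.6 ± 4.51 (SD, n = 4), of which Jund made 68.0%, Jun 22.2% and Fos 4.84%. The sum was 234 ± 13.9 after 0.5 h, 215 ± 2.6 after 1 h, 103 ± 8.03 after 3 h and 78.8 ± 2.07 after 6 h (n = 4, 2, 2 and 2). At 0.5 h Fos alone made 39.8% ± 1.46 of it and Jund 20.6%, and at 1 h Fos made 28.4%, Jund 22.5%, Jun 15.9%, Junb 15.4%, Fosl2 8.93% and Fosb 8.29%. By 3 h Jund again made 50.7% and by 6 h 61.4%. Fosl1 never exceeded 1.7% on average.

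**Figure D2:**
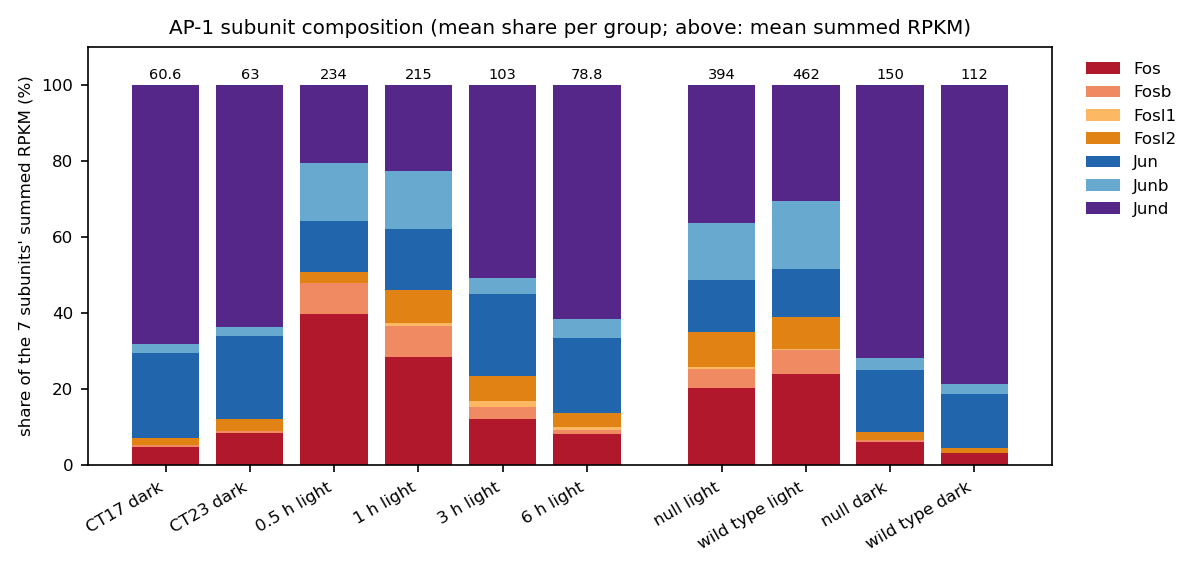
Mean share of each subunit gene in the summed RPKM of the 7 genes (%, bars from 0 to 100), with the mean summed RPKM above each bar; the light-pulse groups are at the left and the Npas4 groups at the right. Jund made 68.0% at CT 17 and 20.6% after 0.5 h of light, when Fos made 39.8%.

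In the Npas4 experiment the targeted gene had 127, 236 and 152 counts in null light libraries, 406, 327 and 423 in wild-type light libraries, 146, 281 and 287 in null dark libraries and 236, 250 and 249 in wild-type dark libraries. The light libraries of the 2 genotypes did not overlap, and the dark ones did. After light the null differed from wild type by -1.14 ± 0.24 log2 units (edgeR adjusted p 0.0663). Reads were thus present in all libraries labelled null, and counts over the whole gene do not check the genotype, since the deleted part is not given.

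All 7 subunits rose with 1 h of light in both genotypes, and the fitted light response of each was smaller in null mice, a difference that was called for Fos only. A light response sets light against dark, and the dark level of all 7 was higher in null mice. After light no subunit was called between genotypes. In null mice 7 of 7 genes were called higher after light than in the dark, against 1.45% of all genes, with a median log2 change of 3.25. In wild-type littermates it was 7 of 7 against 2.23%, with a median of 4.9. The 2 light responses share no library. Of 8 meningeal fibroblast markers edgeR called 0 between light and dark in null mice, 6 had an unadjusted p under 0.05 and DESeq2 called 2, with a median log2 change of -1.19 and sums of at most 146 RPKM in null light and 139 to 1190 RPKM in null dark libraries. In wild-type mice edgeR and DESeq2 called 0 and 0 had an unadjusted p under 0.05, and the sums were 119 to 143 RPKM in light and 93.9 to 167 RPKM in dark libraries. Their part in the light responses was not tested.

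**Figure D3:**
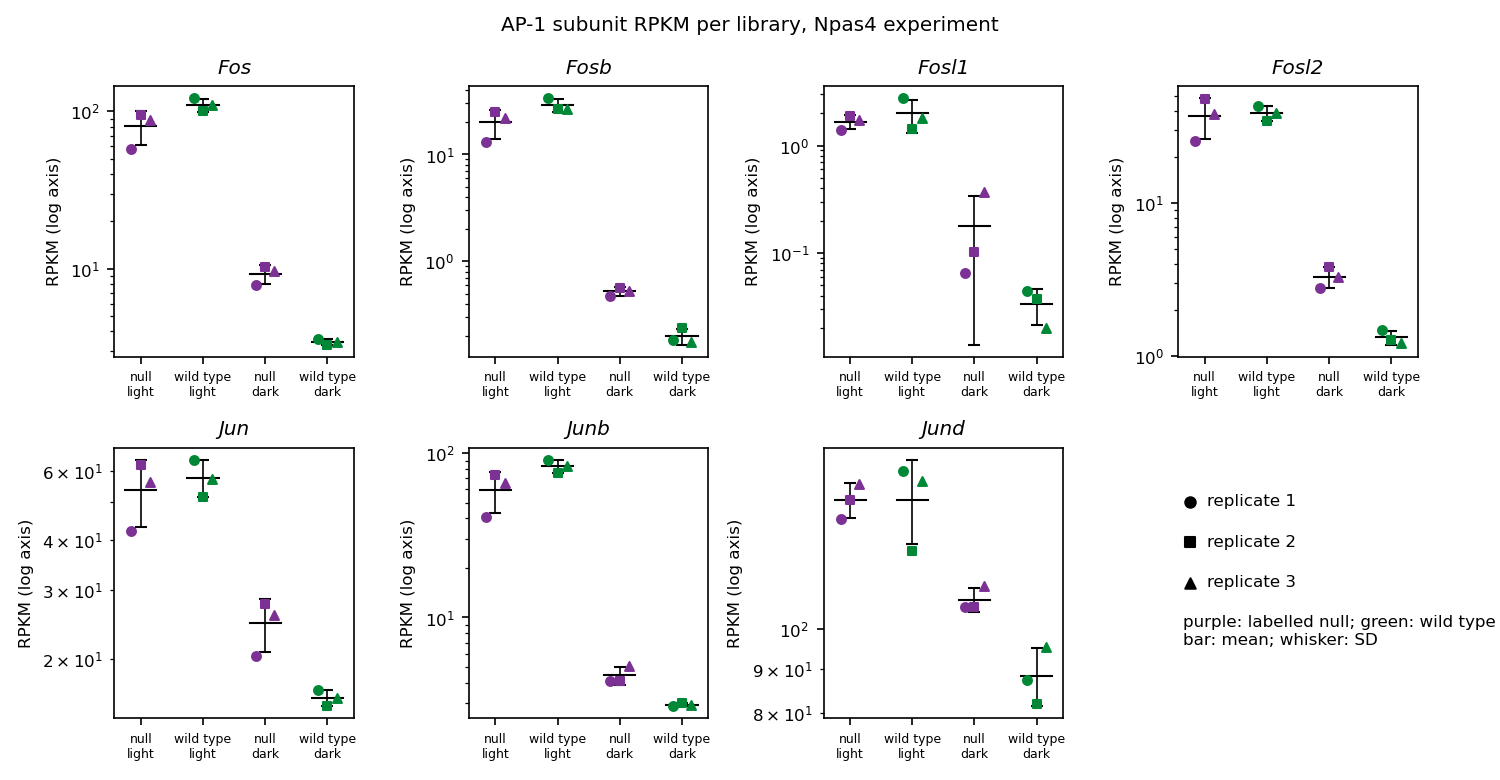
RPKM of each subunit gene in the 12 libraries of the Npas4 experiment on a log axis, with null light, wild-type light, null dark and wild-type dark in order; points are libraries, bars the mean and whiskers the SD (n = 3). The null dark libraries lay above all wild-type dark libraries for each gene, and Fos, Fosb and Junb were lower in each null light library than in any wild-type light library.

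Fos was at 58.0, 95.2 and 88.6 RPKM in null light libraries, 121, 100 and 109 RPKM in wild-type light libraries, 7.85, 10.3 and 9.67 RPKM in null dark libraries and 3.56, 3.3 and 3.43 RPKM in wild-type dark libraries. No 2 of the 4 groups overlapped, the null being lower after light and higher in the dark. The light response was 3.15 ± 0.17 log2 units in null mice (edgeR adjusted p 9.42e-07) and 5.03 ± 0.18 in wild-type mice (adjusted p 2.89e-08).

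Fosb was at 13.1, 24.9 and 21.9 RPKM in null light libraries, 33.5, 26.5 and 26.9 RPKM in wild-type light libraries, 0.471, 0.569 and 0.531 RPKM in null dark libraries and 0.186, 0.236 and 0.176 RPKM in wild-type dark libraries. It took the same order of groups as Fos, again without overlap. Its response was 5.28 ± 0.26 log2 units in null mice (edgeR adjusted p 6.65e-07) and 7.19 ± 0.33 in wild-type mice (adjusted p 2.89e-08).

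Fosl2 was at 25.5, 47.6 and 38.2 RPKM in null light libraries, 43.2, 34.2 and 38.5 RPKM in wild-type light libraries, 2.78, 3.82 and 3.27 RPKM in null dark libraries and 1.47, 1.27 and 1.22 RPKM in wild-type dark libraries. The genotypes overlapped after light and not in the dark. The response was 3.52 ± 0.20 log2 units in null mice (edgeR adjusted p 1.71e-06) and 4.9 ± 0.21 in wild-type mice (adjusted p 1.08e-07).

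Fosl1 had 66, 103 and 87 counts in null light libraries, 140, 75 and 92 in wild-type light libraries, 3, 5 and 17 in null dark libraries and 2, 2 and 1 in wild-type dark libraries. In RPKM that was 1.39, 1.88 and 1.74 in null light, 2.75, 1.42 and 1.79 in wild-type light, 0.0654, 0.103 and 0.367 in null dark, and 0.044, 0.0375 and 0.0202 in wild-type dark libraries. The wild-type dark counts are so few that its fitted response there, 5.80 ± 0.88 log2 units (edgeR adjusted p 3.77e-05), has a 95% interval from 3.89 to 7.7. In null mice the response was 3.25 ± 0.48 (edgeR adjusted p 0.00096).

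Jun was at 42.2, 62.3 and 56.2 RPKM in null light libraries, 64.1, 51.7 and 57.3 RPKM in wild-type light libraries, 20.4, 27.6 and 25.9 RPKM in null dark libraries and 16.7, 15.2 and 15.9 RPKM in wild-type dark libraries. Its genotypes overlapped after light only. The response was 1.15 ± 0.15 log2 units in null mice (edgeR adjusted p 0.000955) and 1.88 ± 0.15 in wild-type mice (adjusted p 1.03e-05).

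Junb was at 40.9, 73.2 and 65.6 RPKM in null light libraries, 90.7, 75.1 and 83.5 RPKM in wild-type light libraries, 4.12, 4.11 and 5.09 RPKM in null dark libraries and 2.9, 3.02 and 2.95 RPKM in wild-type dark libraries. No groups overlapped. Its response was 3.79 ± 0.19 log2 units in null mice (edgeR adjusted p 6.66e-07) and 4.83 ± 0.20 in wild-type mice (adjusted p 4.21e-08).

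Jund was at 134, 141 and 147 RPKM in null light libraries, 152, 123 and 148 RPKM in wild-type light libraries, 106, 106 and 112 RPKM in null dark libraries and 87.3, 82.0 and 95.4 RPKM in wild-type dark libraries. Light raised it by 0.41 ± 0.08 log2 units in null mice (edgeR adjusted p 0.0151) and by 0.70 ± 0.08 in wild-type mice (adjusted p 0.000137), the smallest responses of the 7. The null call was lost without null dark replicate 1 (adjusted p 0.0825) or null light replicate 2 (0.0829) or 3 (0.0884). Jund therefore passed the test for 1 h of light in this experiment and not in the light-pulse experiment (adjusted p 0.214), a difference between experiments that was not tested.

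The response itself differed between genotypes by a called amount for Fos alone of the 7, 1 gene against 0.0133% of all genes called in either direction. The null minus wild-type difference of the Fos response was -1.88 ± 0.25 log2 units (edgeR adjusted p 0.0453). For the others it was -1.91 ± 0.42 for Fosb, -2.55 ± 1.00 for Fosl1, -1.37 ± 0.29 for Fosl2, -0.73 ± 0.21 for Jun, -1.05 ± 0.27 for Junb and -0.29 ± 0.11 for Jund, all with an unadjusted p under 0.05 and none called. The Fos call is a narrow one. It was lost with RLE scaling (adjusted p 0.0503) and without any 1 of 9 of the 12 libraries, namely each wild-type library, null dark replicates 2 and 3 and null light replicate 3, with an adjusted p of up to 0.268. The value itself stayed between -2.04 and -1.68. Without null light replicate 1 it was -1.68 (adjusted p 0.00862), where 0.0132% of all genes were called. In that fit all 7 subunits were called for the light response of null mice, against 1.48% of all genes. DESeq2 called Fos, Fosb and Fosl2.

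**Figure D4:**
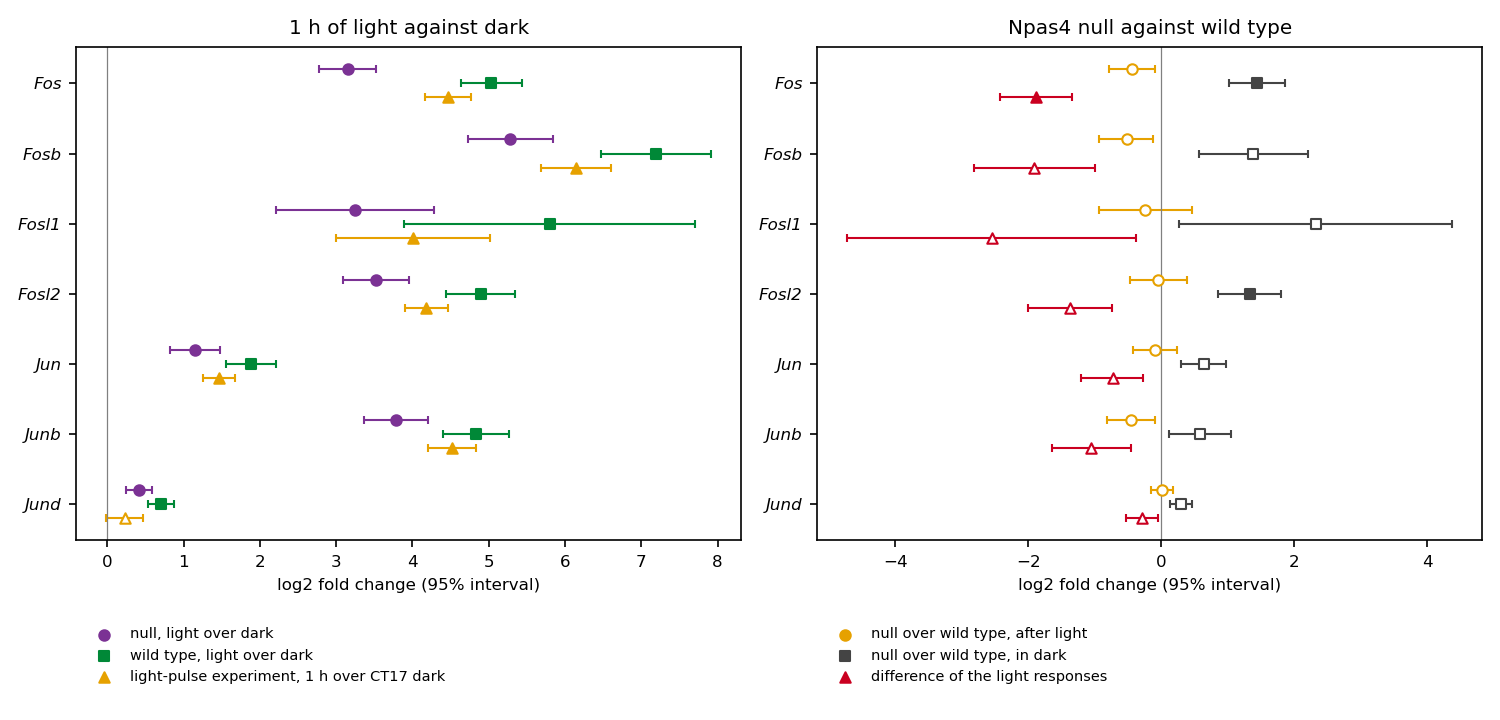
Log2 fold changes of the 7 genes with 95% intervals: at the left 1 h of light over dark in null mice, wild-type littermates and the light-pulse experiment, at the right null over wild type after light, in the dark, and the difference of the light responses; filled symbols had an edgeR adjusted p under 0.05. For Fos the response was 3.15 in null and 5.03 in wild-type mice, and the difference was -1.88.

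In the dark the null libraries held more of each subunit. Fos and Fosl2 were called higher, 2 of 7 against 0.433% of all genes, and all 7 had RPKM values in null dark libraries above those of every wild-type dark library, against 4.67% of all genes. Fos was higher by 1.44 ± 0.19 log2 units (edgeR adjusted p 0.00308) and Fosl2 by 1.33 ± 0.22 (adjusted p 0.0142). The others differed by 1.38 ± 0.37 (Fosb), 2.32 ± 0.95 (Fosl1), 0.64 ± 0.15 (Jun), 0.59 ± 0.22 (Junb) and 0.29 ± 0.08 (Jund), none called by edgeR. DESeq2 also called Fosb, Jun and Jund. The Fosl2 call was lost without wild-type dark replicate 2 (adjusted p 0.0585) or 3 (adjusted p 0.0862), and Jun was called without null dark replicate 1 (adjusted p 0.0397).

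After light 0 of 7 subunits were called between genotypes by edgeR or by DESeq2, against 0.467% of all genes by edgeR, and 3 had an unadjusted p under 0.05. These were Fos (-0.44 ± 0.16), Fosb (-0.52 ± 0.19) and Junb (-0.46 ± 0.17), whose null light libraries all lay below the wild-type ones, as for 7.33% of all genes. Fosl1 (-0.24), Fosl2 (-0.05), Jun (-0.10) and Jund (0.01) overlapped. Without null light replicate 1, where 0.278% of all genes were called, the values were -0.24 for Fos, -0.28 for Fosb and -0.24 for Junb. The 3 comparisons between genotypes share libraries and are not separate observations of one another. The difference of the light responses is the genotype difference after light minus that in the dark. The dark difference was the larger of these in size for each of the 7 genes. It was 1.44 for Fos, 1.38 for Fosb, 2.32 for Fosl1, 1.33 for Fosl2, 0.64 for Jun, 0.59 for Junb and 0.29 for Jund.

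Other genes moved with genotype as well. Of 10 SCN markers, Rgs16 (1.84 ± 0.15 log2 units, edgeR adjusted p 9.45e-05) and Nms (1.47 ± 0.20, adjusted p 0.00439) were called higher in null dark than in wild-type dark libraries, against 0.433% of all genes. In edgeR 4 of the 10 had an unadjusted p under 0.05, and the list median was 0.25 log2 units. The 10 markers summed to 1730 to 2170 RPKM in null dark and 1000 to 1120 RPKM in wild-type dark libraries. Abundant peptide genes weigh most in such sums, with Avp at 350 to 1190 RPKM and Vip at 288 to 716 RPKM over the 12 libraries. After light the same 2 were called, where 0.467% of all genes were called in either direction, with a list median of 0.22. The sums after light were 1750 to 1840 RPKM in null and 979 to 1790 RPKM in wild-type libraries. Of 8 meningeal fibroblast markers 0 were called by edgeR or by DESeq2 and 6 had an unadjusted p under 0.05, and they summed to 139 to 1190 RPKM in null dark and 93.9 to 167 RPKM in wild-type dark libraries. None of these markers was at 0. Their part in the higher dark levels of the AP-1 genes was not tested.

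In the Npas4 experiment the 7 genes summed to 394 ± 69 RPKM in null light, 462 ± 47.1 in wild-type light, 150 ± 8 in null dark and 112 ± 7.02 in wild-type dark libraries (SD, n = 3 each). Jund made 36.4% of the sum in null light, 30.6% in wild-type light, 71.9% in null dark and 78.7% in wild-type dark libraries. Fos made 20.3% in null light and 23.9% in wild-type light libraries, and Junb made 15% in null light and 18% in wild-type light libraries. RPKM levels of the 2 experiments were made from separate tables and were not tested against each other. The Jund share in wild-type mice in the dark at CT 17 differed between them, at 68.0% in the light-pulse and 78.7% in the Npas4 experiment.

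Other genes of the AP-1 pathway were read from lists. Of 20 further bZIP partners, 16 were tested in the light-pulse experiment, and at 1 h 4 were called higher and 1 lower, against 4.39% and 3.99% of all genes, with a list median of 0.05 beside -0.01 over all genes. Maff, a small Maf protein that lacks an activation domain, rose by 2.05 ± 0.18 log2 units at 0.5 h (edgeR adjusted p 6.18e-06) and by 3.58 ± 0.22 at 1 h (adjusted p 3.87e-08). Atf3, a stress-inducible factor that can pair with Jun proteins, rose by 2.16 ± 0.28 at 1 h (edgeR adjusted p 0.00022), and Crem, whose short form ICER represses cAMP-responsive genes, by 0.75 ± 0.12 (adjusted p 0.00242). At 3 h 2 were higher and 1 lower, against 6.4% and 5.06% of all genes, and at 6 h Crem alone was called, against 0.723% called higher (0.68 ± 0.15, edgeR adjusted p 0.045). In the Npas4 experiment 17 were tested, with 3 higher after light in null mice, against 1.45% of all genes, and 5 in wild-type mice, against 2.23%. Maff rose by 3.19 in null and 4.33 in wild-type mice. Between genotypes 0 of 17 were called by edgeR in the dark or after light, with 4 at an unadjusted p under 0.05 in each, and DESeq2 called 1 in the dark and 0 after light. For the difference of responses edgeR called 0, 3 had an unadjusted p under 0.05, and DESeq2 called 1.

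The kinases and factors known to act on Fos and Jun genes and proteins in other cells formed a list of 31. Of 29 tested, Srf alone was called at 0.5 h, where 0.427% of all genes were called higher (0.32 ± 0.06 log2 units, edgeR adjusted p 0.0395). At 1 h Elk4, a partner of SRF, was higher (0.53 ± 0.15, adjusted p 0.0466) and the kinase Mapk3 lower (-0.38 ± 0.09, adjusted p 0.0237), 2 of 29 where 8.39% of all genes were called in either direction. At 3 h 5 were higher, against 6.4% of all genes, Crebbp by the most among them (0.59 ± 0.17, edgeR adjusted p 0.0369). Elk4 and Srf were the genes called with light in both genotypes, where 1.45% of all genes in null and 2.23% in wild-type mice were called higher, Elk4 by 0.62 in null and 0.99 in wild-type mice and Srf by 0.51 in null and 0.61 in wild-type mice. Mapk3 was called in neither genotype. In wild-type littermates it averaged 46 ± 3.18 RPKM after light and 45.9 ± 3.92 RPKM in the dark (SD, n = 3 each).

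Among 30 genes named as AP-1 targets in other cells, 25 were tested in the light-pulse experiment. At 1 h 3 were higher and 2 lower, against 4.39% and 3.99% of all genes, at 3 h 7 were higher and 1 lower, against 6.4% and 5.06%, and at 6 h 4 were higher, against 0.723%. At 1 h the neuropeptide genes Nts (2.64 ± 0.43 log2 units, edgeR adjusted p 0.00226) and Gal (2.09 ± 0.33, adjusted p 0.00187) were called higher in the fit with the batch term, and Pdyn, the prodynorphin gene, lower (-1.24 ± 0.27, adjusted p 0.0132). Nts averaged 76.1 ± 31.4 RPKM at 1 h (SD, n = 2) and 32.7 ± 25.1 RPKM at CT 17 (SD, n = 4), and Gal 56.2 ± 1.47 and 27.3 ± 18.4 RPKM, so that both were scattered in the dark. In wild-type littermates none of the 3 was called after light: Nts averaged 12.9 ± 1.51 RPKM after light and 12.8 ± 4.08 RPKM in the dark, Gal 28.2 ± 8.69 and 27.5 ± 15.9 RPKM, and Pdyn 13.2 ± 3.76 and 9.42 ± 2.01 RPKM (SD, n = 3 each). At 3 h Nts (2.43 ± 0.44, edgeR adjusted p 0.00326) and Gal (2.27 ± 0.33, adjusted p 0.000728) were called higher than at CT 17, and Lif, a cytokine gene, was higher by 1.72 ± 0.24 (adjusted p 0.000532). At 6 h the metallothionein genes Mt2 (1.21 ± 0.11, edgeR adjusted p 5.91e-05) and Mt1 (0.61 ± 0.13, adjusted p 0.04) were among the called ones. Of 26 tested in the Npas4 experiment, 2 were higher with light in wild-type mice, against 2.23% of all genes, Ccnd1 among them (0.34 ± 0.08, edgeR adjusted p 0.0443). In null mice edgeR called 0, with 4 at an unadjusted p under 0.05, and DESeq2 called 1; for the difference of responses edgeR and DESeq2 called 0 and 2 had an unadjusted p under 0.05. Mmp14, which encodes a membrane-bound matrix protease, was higher in null than in wild-type libraries in the dark (0.50 ± 0.10, edgeR adjusted p 0.0415).

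Genes whose log2 level followed each subunit most closely over the 28 libraries, each experiment centred on its own mean, were ranked among 14476 genes. These correlations describe libraries that share a light and dark contrast. For Fos they were Dusp1 (Pearson r 0.99), Nr4a1 (0.98) and Egr1 (0.98), for Fosb Egr2, Egr1 and Dusp1 (0.98 each), and for Junb Egr1 (0.99), Egr2 (0.98) and Arc (0.98). Jun was followed by Egr2 (0.97), Dusp1 (0.97) and Nr4a3 (0.96). Fosl2 had other neighbours, Maff, Per1 and Midn (0.98 each), as did Fosl1, with Fam167a (0.96), Spry4 (0.96) and Crem (0.95). Jund followed Dnajb5 (0.91), Stk40 and Spry4 (0.89 each). Among the subunits r was 0.98 for Fos with Fosb and with Junb, 0.97 for Fos with Jun, 0.90 for Fosl1 with Fosl2, 0.73 for Fos with Jund and 0.69 for Fos with Fosl1.

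H3K27ac reached into the Fos and Fosl2 genes in the light list and not in the dark list, which 3.95% of all genes also did. In the light list 583 bases of Fos and 591 of Fosl2 were covered, against 0 in the dark list for both. Counted by bases, 5 of 7 genes had more H3K27ac in the light list, against 26.1% of all genes. They were those 2, Fosb (424 in light against 210 in dark), Junb (1708 against 1012) and Jund (2192 against 1890). Jun had 1472 bases in light and 1528 in dark, and Fosl1 had 0 in both. With 1 list per mark and condition there is no replicate check and no test.

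**Figure D5:**
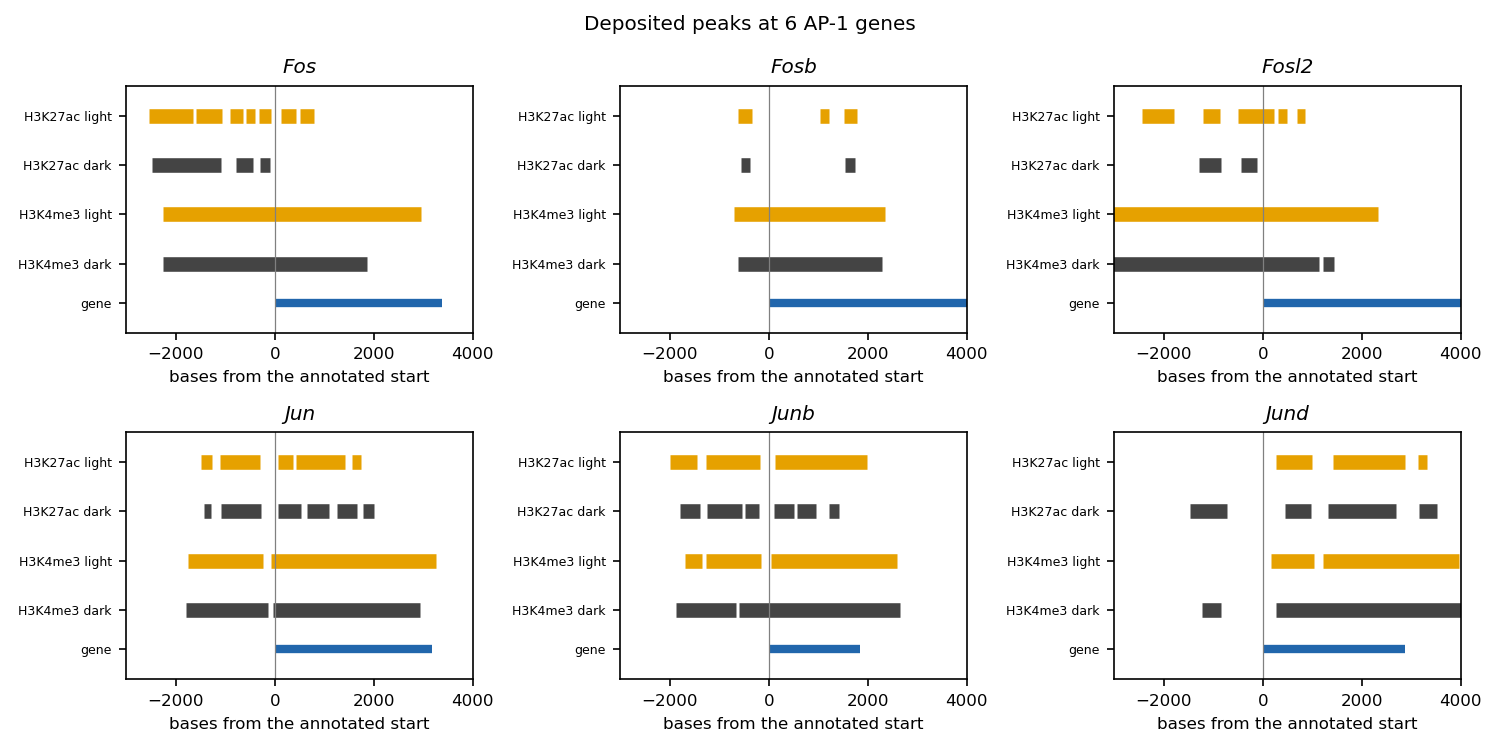
H3K27ac and H3K4me3 peaks around the start of 6 of the 7 genes (horizontal axis in bases from the annotated start, in the direction of transcription), with the light list above the dark list. In Fos and Fosl2 the light H3K27ac list has peaks inside the gene where the dark list has none.

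The 2 Fos peaks inside the gene lay at 134 to 435 bases (the authors' fold enrichment 5.0, -log10 q 4.83) and 504 to 784 bases (fold 4.67, -log10 q 4.75) past the start, and overlapped no dark peak. Upstream of the start both lists had peaks, and the largest fold within 2 kb of the gene was 7.44 in light and 9.14 in dark. Fosl2 had a light peak that covered the start from position -491 to 235 (fold 8.2), where the dark peak ended at position -109. It also had light peaks at 305 to 497 (fold 3.15, -log10 q 2.42) and 696 to 857 bases (fold 4.53, -log10 q 4.13) past the start. The smallest -log10 q of the light H3K27ac list was 2.04. Of the light peaks inside Fos and Fosl2, only that over the Fosl2 start (-log10 q 13.8) reached a -log10 q of 10. Across Junb 1 light peak, 132 to 1983 bases past the start (fold 10.0), stood in place of 3 dark ones.

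H3K4me3 overlapped all 7 genes in both lists. More bases were covered in light for 3 of 7, against 11.0% of all genes, namely Fos (2960 in light against 1859 in dark), Fosl2 (2335 against 1370) and Jun (3187 against 2947). The Fos peak ended 2959 bases past the start in light and 1858 in dark, with a fold of 28.7 in light and 35.6 in dark. Within 100 kb of the 7 genes there were 120 light and 129 dark H3K27ac peaks, of which 20 and 31 overlapped no peak of the other condition, and 98 light and 106 dark H3K4me3 peaks, of which 0 and 22 did not. In the whole lists 34.9% of the light and 32.6% of the dark H3K27ac peaks, and 4.21% of the light and 23.7% of the dark H3K4me3 peaks, overlapped none of the other condition.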

How the data were processed

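The genes and lists were chosen with earlier results of these data known, and nothing here is independent of them. For 28 libraries the authors deposited raw counts of reads, as whole numbers by gene, with RPKM values beside them; the deposited RPKM equals count over gene length and library total. MACS2 2.1.1, HTSeq 0.9.1, featureCounts 1.6.2 and STAR (2.5.2b and 2.7.1a), on build mm10, are named per the submitters' processing notes; which tool made which file, and whether counting used strand, is not given in the sources used here. In the deposited peak lists each peak has the authors' linear fold enrichment and −log10 q-value, 1 list per mark and condition; the input and single-nucleus samples are not analysed here.

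After filterByExpr and TMM scaling, counts went through the quasi-likelihood test of edgeR 4.0.16 (R 4.3.3), with Benjamini-Hochberg adjustment over all genes and calls at 0.05. The light-pulse fit held group and the batch of the labels over 16 libraries, and the Npas4 fit held 4 groups over 12 libraries. DESeq2 1.42.0, RLE scaling, no filter, other batch terms, the replicate number as a block and leaving out each library were alternatives. The script was tested on simulated counts. All 7 subunits and Npas4 are named, up to 4 called genes of each list per comparison by size of change, and 3 pattern neighbours per subunit. One gene of these lists is not reported here.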

Additional observations from a re-analysis of the deposited data

Results flagged for a closer look

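Jun in 0.5 h library 2s stood at 29.0 RPKM, below the other 0.5 h libraries by more than the gap test allows for 4 values. It was 1 of 14 gene and group pairs tested, and chance gives about 1 in 20. The light response of Fos differed between null and wild-type mice by -1.88 log2 units in the test of the difference itself, with the limits given beside that result.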

How the results depend on the processing

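No log2 change of a subunit that was called reversed its sign. Over 595 values under other settings 563 kept their side of the threshold, and over 560 with 1 library left out 522 did. Counts of subunits called moved as follows. At 6 h against CT 23 the count of 1 was 3 with DESeq2 (Junb, Fosb and Fosl2) and 3 with the suffix term or libraries of a number summed (Junb, Fosb and Fosl1), 2 with no batch term, and 0 to 2 with 1 library left out. At CT 23 against CT 17 in the dark the count of 2 was 0 with the suffix term or within label batch 1, 1 within label batch 2, and 0 to 2 with 1 library left out. The difference of light responses gave 3 with DESeq2, 0 with RLE scaling and 0 to 1 with 1 library left out, and null against wild type in the dark 5 with DESeq2 and 1 to 3. With 1 library left out the steps of 1 h against 0.5 h gave 1 to 3 and of 6 h against 3 h 2 to 4, and within label batch 2 the step of 6 h against 3 h gave 5. Calls over all genes moved more than those of the subunits. At 1 h they numbered 1218, 184 with the suffix term and 2495 within label batch 2. At 3 h they numbered 1664, 471 and 2809 under the same settings, and for 1 h against 0.5 h 1056, 72 and 3164. Null against wild type gave 113 in the dark and 254 with DESeq2, and 70 after light and 161 with DESeq2. The difference of responses gave 2, 11 with DESeq2 and 1 with RLE scaling, and at 0.5 h 64 became 27 within label batch 1. At 6 h 146 became 240 with DESeq2, and for CT 23 against CT 17 69 became 267. The cause was not tested.

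The labels do not say whether replicate numbers pair the libraries, and the main fits held no replicate block. In the Npas4 experiment same-numbered libraries correlated between -0.01 and 0.53 (median 0.2). Differently numbered ones there correlated between -0.41 and 0.13 (median -0.11). An effect shared by a replicate number is therefore not taken up in the main genotype and light tests of that experiment. In the light-pulse experiment same-numbered libraries correlated between -0.51 and 0.51 (median 0.08) and differently numbered ones between -0.6 and 0.36 (median -0.08). The replicate block gave 4 subunits for null against wild type in the dark and, with the suffix term, 3 at 6 h. Over all genes the block gave 463 in the dark and 227 after light between genotypes, and 452 and 755 for the light response of null and wild-type mice, against 234 and 386 without it.

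Peak counts within 10 kb were 40 light and 40 dark for H3K27ac and 21 light and 22 dark for H3K4me3. Within 50 kb they were 77 for dark H3K27ac, 58 for light and 61 for dark H3K4me3. At -log10 q of 10 or more H3K27ac had 41 light and 49 dark peaks. Unshared peaks within 10 kb were 7 light and 6 dark for H3K27ac and 4 dark for H3K4me3, within 50 kb 13 dark for H3K27ac and 11 dark for H3K4me3, and at the stricter q 1 in each of these. Where a shared peak had to overlap by 50% of the shorter one, 3 light H3K4me3 peaks were unshared. Shares of the summed RPKM with coding lengths were not run. Fosl1 had 1 to 2 counts per library in wild-type dark libraries.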
